A study of Homo sapiens with 118 samples.

Results

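The effect of a 9-fold step in valproic acid was examined in HepaRG cells, an established human liver line that had been thawed in its differentiated state. The members of the comparison are the 3 libraries of group valproic_acid_C3, the middle of 5 concentrations, and the 3 libraries of valproic_acid_C1, the lowest, taken by their group label from 118 libraries of 8 histone deacetylase inhibitors. Replicates 1, 2 and 3 of each group came from HepaRG batches B326, B330 and B303, and all 6 libraries lay on plate H. Exposure began on day 7 of culture and lasted 72 h with daily renewal, per the labels. The dose label was 100.478 at C1 and 904.3 at C3, whereas the treatment protocol gives 0.100478 and 0.9043 µM, so the unit of the concentration is not settled and the groups are called C1 and C3. Cells without valproic acid were not analysed here, so a response that C1 had already brought about is outside the comparison, and 0.5% DMSO is stated for the solvent controls of the series only.

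Valproic acid is a branched short-chain fatty acid used against epilepsy and bipolar disorder. It inhibits class I and class IIa histone deacetylases, the enzymes that remove acetyl groups from histone tails, and acetylated histones are a mark of open, transcribed chromatin. In the liver it is glucuronidated, oxidised in mitochondria and oxidised by cytochromes P450, and it is known clinically for fatty change of the liver and for raised blood ammonia. Differentiated HepaRG cultures hold hepatocyte-like cells beside biliary-like cells.

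Counts were measured with TempO-Seq, in which pairs of probes are ligated on their target RNA and sequenced. A row of the table is 1 probe pair, called a feature here, and a gene may have several. Total counts lay between 3442880 and 5123094 at C1 and between 3909754 and 4377755 at C3, within the range of 1061359 to 5250260 over all libraries. The correlation of log2 levels between 2 libraries of a group was 0.957 to 0.962, and no 2 libraries agreed within sampling noise. The labels name the cell type as liver progenitor cells. Hepatocyte markers (ALB, APOA1, TTR, CYP3A4, ASGR1 and others, 21 features) summed to 50870 to 59940 CPM (counts relative to library size, with TMM scaling) at C1, and biliary markers (KRT7, KRT19, SOX9, EPCAM and others, 15 features) to 84.7 to 95.2 CPM.

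At C3, 27 features of hepatocyte plasma proteins and the bile acid enzymes CYP7A1 and CYP8B1 were among those that fell, and CYP1A1, GPR50 and TNFAIP6 among those that rose. Of 12982 features tested, 147 were called, at a Benjamini-Hochberg adjusted p under 0.05 in edgeR's quasi-likelihood test and a change of at least 1.5-fold, which is 1.13% of those tested. Falling features numbered 109 (0.84%), from 102 gene symbols, and rising features 38 (0.293%), from 37 symbols. All 147 moved the same way within each of the 3 batches, and in all 147 the C1 and C3 libraries did not overlap, a state found in 20.7% of all features tested. The median log2 change of the rising features was 1.40, 1.40 and 1.38 within batches 1, 2 and 3. The corresponding medians of the falling features were -1.17, -1.29 and -1.15. The 147 were called on these same libraries, so their agreement across batches and lack of overlap follow largely from the call and are no separate support. Without batch 1 in any valproic acid group 10 features were called, all of them among the 147, and 46 without batch 2. When only the 6 libraries compared were fitted, 376 were called, among them 145 of the 147.

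The falling and the rising features differed in abundance. The falling features had a median level of 191.1 CPM at C1 and the rising features one of 10.8 CPM, beside 22.4 CPM over all features tested. The C1 level also enters the change by which features were called, so these levels are a description only. Among the 100 most abundant features at C1, 24 fell and 0 rose, and among the first 1000, 49 fell and 1 rose. The 109 falling features together held 8.61%, 9.45% and 8.43% of all counts in the 3 C1 libraries and 4.79%, 5.03% and 4.83% in the C3 libraries. The rising features held 0.0986%, 0.096% and 0.0985% at C1 and 0.214%, 0.206% and 0.217% at C3. A change of at least 2-fold was reached by 69 falling and 30 rising features, and one of at least 4-fold by 18 falling and 11 rising features.

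**Figure D1:**
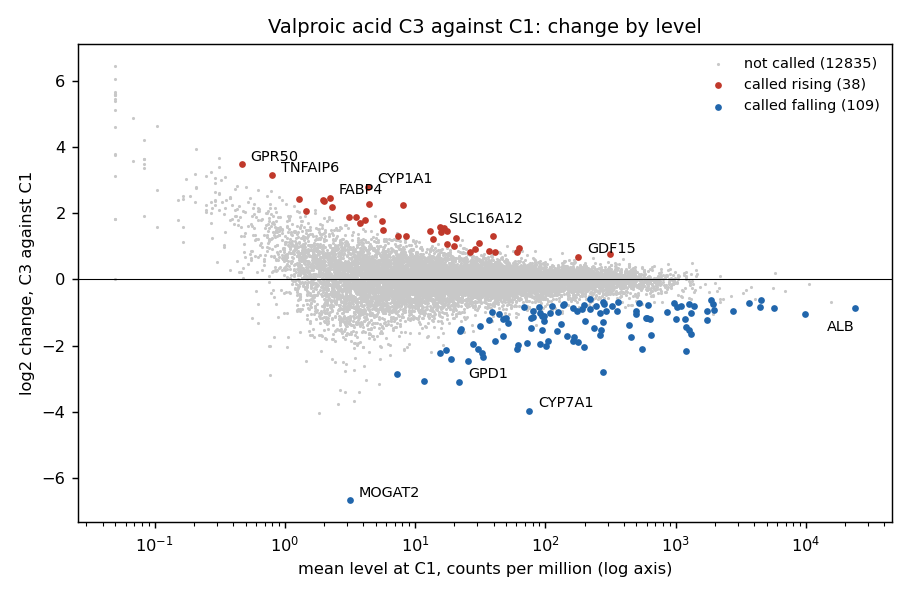
Log2 change of C3 against C1 (vertical axis) against the mean level of the 3 C1 libraries in CPM (horizontal log axis) for the 12982 features tested, with features at 0 in all C1 libraries drawn at the left edge. The 109 falling features (blue) reach up to the most abundant feature, ALB, whereas the 38 rising features (red) all lie below 315 CPM.

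The promoters of the 2 rising and the 2 falling genes of largest change with an entry in the RefSeq promoter table (GRCh38.p14) are shown, since these genes moved most. Each holds 250 bases before and 50 after the start of the gene, written 5′ to 3′ in the direction of the gene. Capitals mark, on either strand, the GC box with the letters GGGCGG, the CCAAT box, the AP-1 site with the letters TGACTCA and the nuclear receptor half-site with the letters AGGTCA. Also searched were the TATA box with the letters TATAAA, the E-box with the letters CACGTG and the HNF4 site with the letters CAAAGTCCA, and their letters were not in these 4 windows. None of the marked matches overlap.
GPR50, chrX:151176334-151176633, plus strand: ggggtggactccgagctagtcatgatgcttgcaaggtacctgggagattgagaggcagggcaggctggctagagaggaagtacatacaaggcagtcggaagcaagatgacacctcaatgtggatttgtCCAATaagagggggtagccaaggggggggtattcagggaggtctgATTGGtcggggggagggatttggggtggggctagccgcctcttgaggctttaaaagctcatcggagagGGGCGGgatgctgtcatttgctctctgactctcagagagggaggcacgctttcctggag
TNFAIP6, chr2:151357342-151357641, plus strand: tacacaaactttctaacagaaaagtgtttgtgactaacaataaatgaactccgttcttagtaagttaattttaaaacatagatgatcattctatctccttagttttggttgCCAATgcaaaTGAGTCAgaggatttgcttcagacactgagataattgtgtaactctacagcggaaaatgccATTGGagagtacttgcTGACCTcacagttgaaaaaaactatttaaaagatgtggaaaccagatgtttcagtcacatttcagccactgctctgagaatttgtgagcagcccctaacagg
SLC15A1, chr13:98752623-98752922, minus strand: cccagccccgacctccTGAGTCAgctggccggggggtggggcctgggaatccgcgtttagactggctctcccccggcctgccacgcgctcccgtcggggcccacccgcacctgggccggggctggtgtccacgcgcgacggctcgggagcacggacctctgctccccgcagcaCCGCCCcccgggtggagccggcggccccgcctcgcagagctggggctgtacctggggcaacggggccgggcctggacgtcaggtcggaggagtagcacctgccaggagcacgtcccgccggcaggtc
SLC22A7, chr6:43298010-43298309, plus strand: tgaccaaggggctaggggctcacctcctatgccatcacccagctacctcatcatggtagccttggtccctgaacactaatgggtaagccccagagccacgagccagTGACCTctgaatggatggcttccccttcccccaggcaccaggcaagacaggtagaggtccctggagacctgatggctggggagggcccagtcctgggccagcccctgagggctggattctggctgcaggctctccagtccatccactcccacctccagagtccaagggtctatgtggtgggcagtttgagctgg
Both windows of rising genes hold 2 matches to the CCAAT box, and the SLC22A7 window holds 1 half-site and no other match. Over all 27305 promoters of the table, the GC box is in 44.6%, the CCAAT box in 35.7%, the half-site in 13.9%, the TATA box in 12.0%, the E-box in 7.43%, the AP-1 site in 4.92% and the HNF4 site in 0.359%. Of the 102 falling symbols 75 had an entry, and of the 37 rising symbols 27, which is under 80% of each, so a comparison of base composition or motif shares between the sets is void.

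Genes of bile acid synthesis were among the largest falls. CYP7A1, the rate-limiting enzyme of the classic pathway, was at 79.5, 82.5 and 62.6 CPM in the 3 C1 libraries and at 6.57, 1.46 and 6.10 CPM at C3. The lowest C1 library was thus far above the highest C3 library, and the log2 change was -3.98 (SE 0.46, edgeR adjusted p = 4.91e-05). CYP8B1, which makes the precursor of cholic acid, was at 8.86, 9.73 and 16.4 CPM at C1 and at 1.13, 1.22 and 1.78 CPM at C3 (log2 change -3.06, SE 0.71, edgeR adjusted p = 0.0355). BAAT, which conjugates bile acids to glycine and taurine, was more abundant and fell less. Its 3 libraries were at 1260, 1274 and 1416 CPM at C1 and at 675.5, 553.5 and 727.9 CPM at C3 (log2 change -1.01, SE 0.15). ABCC2, the canalicular pump for conjugates, fell from 133.3 to 138.0 CPM at C1 to 75.1 to 86.5 CPM at C3. Of 24 features tested in the list of bile acid synthesis and transport, 4 fell, 0 rose and 21 had a change below 0. The median log2 change was -0.47, beside 0.0026 over all features tested. Of all 12982 features tested, 0.84% fell and 6445 had a change below 0.

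Of 23 features of genes that handle valproate itself, 7 fell and 0 rose, beside 0.84% falling and 0.293% rising over all features tested. Of the others, 3 had a change above 0. UGT1A9, a glucuronosyltransferase, was at 84.7, 89.7 and 43.9 CPM at C1 and at 13.4, 23.4 and 20.3 CPM at C3 (log2 change -1.93), although reads of the near-identical UGT1A genes may be shared between probes. Batch 3 was the lowest of the C1 libraries and still above every C3 library. The medium-chain acyl-CoA synthetases ACSM2A and ACSM2B, which are close copies of each other, fell by 1.66 and 1.89 on the log2 scale. CYP2E1, the ethanol-inducible P450, was at 195.3, 154.0 and 138.0 CPM at C1 and at 55.0, 35.6 and 44.0 CPM at C3. EPHX1, the microsomal epoxide hydrolase, fell by 0.75 on the log2 scale. The median log2 change of the list was -0.84. Without batch 2 that median was -0.66.

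Among the 22 features of drug-metabolising cytochromes P450, 3 fell, that of CYP2E1 among them, 1 rose and the median log2 change was -0.46. The shares over all features tested were 0.84% falling and 0.293% rising. The one that rose was CYP1A1, the P450 induced through the aryl hydrocarbon receptor. It was at 3.30, 3.14 and 6.70 CPM at C1 and at 36.7, 29.0 and 26.2 CPM at C3 (log2 change 2.79, SE 0.37, edgeR adjusted p = 0.000205). Every C3 library was above every C1 library. The other tested feature of CYP1A1 had a log2 change of 3.18 and was not called. At C2 CYP1A1 was at 4.37, 2.64 and 7.55 CPM, and at C4 at 81.2, 83.8 and 163.8 CPM.

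Several alcohol and retinol dehydrogenases fell. ADH4, a class II alcohol dehydrogenase, was at 61.2, 55.8 and 66.0 CPM at C1 and at 12.0, 11.7 and 18.6 CPM at C3 (log2 change -2.12, SE 0.33). The 2 features of ADH1A fell, as did that of the near-identical ADH1B, which was chosen after its values were seen, by 1.69, 1.44 and 1.52 on the log2 scale. RDH16, a microsomal retinol dehydrogenase, was at 183.6, 222.4 and 193.1 CPM at C1 and at 44.2, 33.9 and 68.1 CPM at C3 (log2 change -2.03). HAO2, a peroxisomal hydroxyacid oxidase, was at 661.7, 644.7 and 620.1 CPM at C1 and at 212.0, 179.5 and 208.7 CPM at C3 (log2 change -1.68, SE 0.18, edgeR adjusted p = 3.29e-05). DHRS9, another retinol dehydrogenase, went the other way and rose from 1.44, 2.20 and 0.745 CPM to 5.89, 5.61 and 6.61 CPM. GSTA2, a glutathione transferase, had 1 feature that fell by 1.72 on the log2 scale and another with a change of 0.14, so its probes disagree. GSTA1, GSTA2 and ABCC2 were the 3 of 34 features that fell in the list of NRF2 targets, which respond to oxidative stress. 0 of that list rose and its median log2 change was -0.17, while 0.84% of all features tested fell.

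G6PC, the catalytic subunit of glucose 6-phosphatase, was at 94.2, 80.9 and 96.8 CPM at C1 and at 24.0, 27.8 and 18.04 CPM at C3 (log2 change -1.96). GPD1, the cytosolic glycerol 3-phosphate dehydrogenase, was at 23.7, 26.4 and 15.4 CPM at C1 and at 4.53, 1.22 and 1.78 CPM at C3 (log2 change -3.09). In both genes the groups lay well apart.

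MOGAT2, an acyltransferase that makes diacylglycerol, had 40 counts in the C1 libraries, at 4.12, 1.88 and 3.48 CPM, and 0 counts in all C3 libraries. Against a floor of 3 counts per C3 library it was at least 4.36-fold lower (edgeR adjusted p = 0.0397), a bound that covers counting error only. The call was lost with the HepaRG batch as a block (edgeR adjusted p = 0.0555). FABP4, a fatty acid carrier typical of adipocytes and macrophages, rose from 2.68, 3.45 and 0.497 CPM to 8.61, 13.7 and 14.0 CPM (log2 change 2.46, SE 0.45, edgeR adjusted p = 0.00492). These 2 were the only calls among 21 features of lipid droplets and triglyceride storage, whose median log2 change was -0.27. FABP1, the liver fatty acid carrier, fell in both of its features, by 1.36 and 1.48 on the log2 scale. Together with EHHADH, a peroxisomal oxidation enzyme that fell by 0.70, these were the 3 falling features of 36 in the list of PPARA targets and fatty acid oxidation (median -0.15, 0 rising). The share called over all features tested was 1.13%. None of 15 features of fatty acid synthesis and none of 27 of cholesterol synthesis and uptake was called, with medians of -0.13 and -0.25. Their lowest p-values belonged to THRSP (log2 change -2.13, edgeR adjusted p = 0.306) and to EBP (-0.77, edgeR adjusted p = 0.137).

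CPS1, which starts the urea cycle, was at 92.7, 103.8 and 84.7 CPM at C1 and at 39.0, 24.6 and 33.3 CPM at C3 (log2 change -1.54, SE 0.31, edgeR adjusted p = 0.0112). ARG1, which ends the cycle, fell by 1.13 on the log2 scale (edgeR adjusted p = 0.021). They were the 2 falling features of 16 in the list of the urea cycle and glycine cleavage. The median log2 change of that list was -0.28, and -0.46 without batch 1. In the list 15 of 16 changes lay below 0 and 0 features rose. Of all 12982 features tested, 0.84% fell and 6445 had a change below 0.

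Plasma proteins made by hepatocytes formed the largest group of falling features. Of 70 features tested, from 65 genes, 27 fell and 0 rose, and 69 of 70 changes lay below 0, with a median log2 change of -0.80. Over all 12982 features tested, 0.84% fell, 0.293% rose and 6445 changes lay below 0. ALB, which encodes albumin, was the most abundant of these features. It was at 23130, 28390 and 20550 CPM at C1 and at 13640, 15590 and 10540 CPM at C3 (log2 change -0.86, SE 0.19, edgeR adjusted p = 0.0234). CRP, an acute phase protein, was at 14.0, 12.6 and 19.9 CPM at C1 and at 2.94, 3.66 and 3.30 CPM at C3 (log2 change -2.22). AHSG, the carrier fetuin-A, was at 35.4, 30.1 and 26.3 CPM at C1 and at 9.96, 4.15 and 7.37 CPM at C3 (log2 change -2.09). In all of them the C3 libraries were below the C1 libraries.

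All 3 fibrinogen chains fell, FGA by 1.05, FGB by 0.82 and FGG by 0.87 on the log2 scale. Of the other clotting proteins, F7 fell by 1.39, F11 by 1.32, KNG1 by 1.55 and the inhibitor SERPINC1, antithrombin, by 1.75. SERPINC1 was at 441.9, 446.4 and 473.9 CPM at C1 and at 128.6, 142.0 and 135.7 CPM at C3, a tight and separate pair of groups. Among apolipoproteins, both features of APOC3 fell, by 1.23 and 1.20, APOC1 by 0.78 and APOE by 1.01. The carriers TF, RBP4 and AFM fell by 0.63, 0.71 and 1.97 on the log2 scale, and the ITIH family genes ITIH1, ITIH2 and ITIH4 by 1.73, 0.97 and 0.92. Complement factor CFB fell by 0.97, HRG by 1.87, the adhesion protein VTN by 1.52 and 1.01 in its 2 features, and LBP, which binds bacterial lipopolysaccharide, by 0.80. The orosomucoids ORM1 and ORM2, near-identical acute phase genes, fell by 0.97 and 0.71. The factor H-related genes CFHR4 and CFHR3, which lay outside the list and are near copies of each other, fell by 2.47 and 2.02. CFHR3 was at 90.9, 120.8 and 92.1 CPM at C1 and at 21.3, 31.2 and 22.4 CPM at C3.

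SLC22A7, an organic anion transporter, was at 34.6, 40.2 and 25.1 CPM at C1 and at 4.76, 5.61 and 9.40 CPM at C3 (log2 change -2.33, SE 0.44, edgeR adjusted p = 0.00634). Its other feature had a log2 change of -2.41. SLC15A1, a peptide transporter, fell from 6.18, 7.53 and 8.19 CPM to 0.679, 0.976 and 1.27 CPM (log2 change -2.87, edgeR adjusted p = 0.0427). SLC2A2, the liver glucose transporter GLUT2, was chosen after its values were seen and was at 40.4, 60.6 and 41.0 CPM at C1 and at 17.2, 14.4 and 11.4 CPM at C3.

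**Figure D2:**
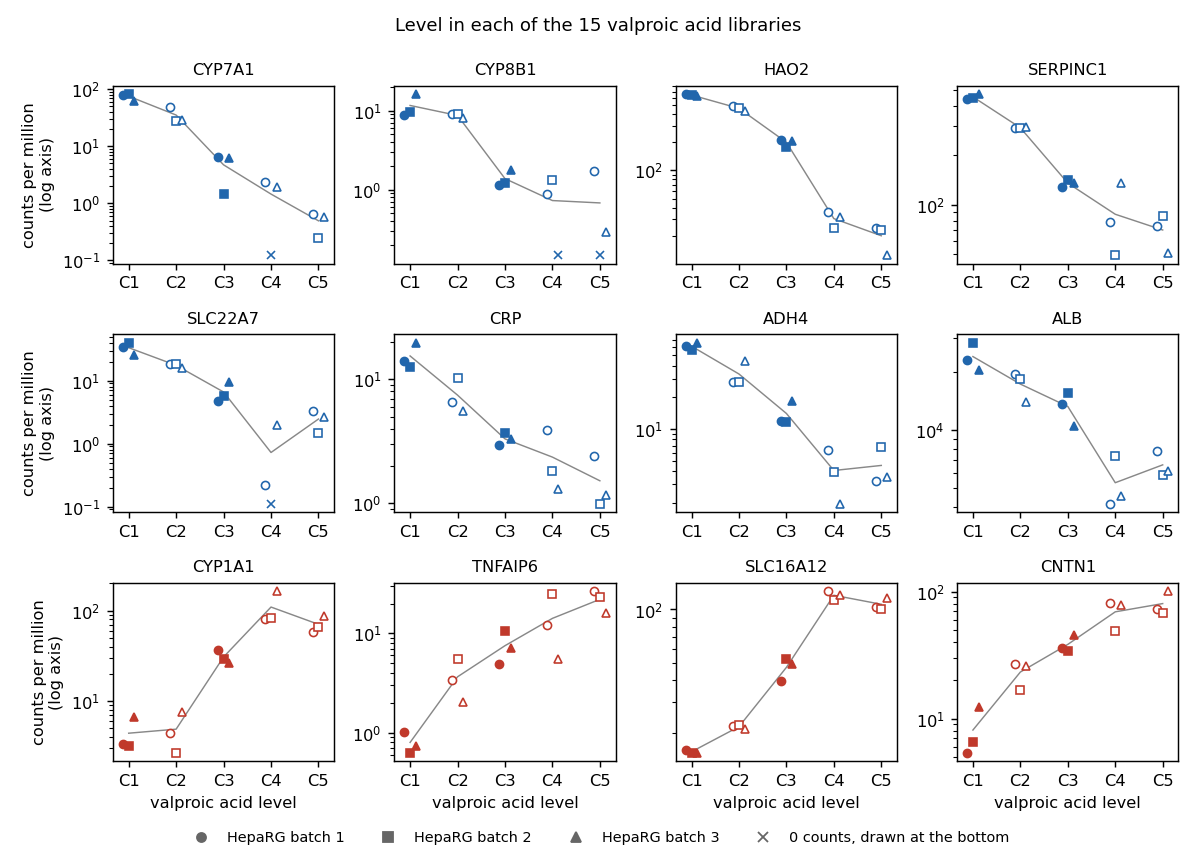
Level in CPM (log axis) of 12 called genes in each of the 15 valproic acid libraries, from C1 to C5, with a symbol per HepaRG batch, filled at C1 and C3, and a line through the group means. The 8 falling genes (blue) and the 4 rising genes (red) have C1 and C3 libraries that do not overlap, and 0 counts, drawn as crosses at the bottom, occur only at C4 and C5.

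The rising genes were mostly of low abundance. GPR50, a receptor-like protein of the melatonin receptor family, had 1, 3 and 1 counts in the C1 libraries and 23, 25 and 15 counts at C3. The ratio of the pooled scaled counts was 12.2, with an exact 95% interval of 4.97 to 38.9 for counting error only (edgeR adjusted p = 0.00497). TNFAIP6, a secreted hyaluronan-binding protein, had 5, 2 and 3 counts at C1 and 22, 43 and 28 at C3, and its log2 change was 3.15 (SE 0.61, edgeR adjusted p = 0.00729). Both genes had few counts in the reference group. SLC16A12, a monocarboxylate and creatine transporter, was better measured, and it had the lowest adjusted p of the rising features. It was at 16.1, 15.4 and 15.4 CPM at C1 and at 39.4, 52.7 and 48.8 CPM at C3 (log2 change 1.59, SE 0.18, edgeR adjusted p = 4.91e-05). It was also the 1 rising feature called without batch 1.

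Several rising genes act in neurons or at cell contacts, and all of those below but BDNF are named by size of change or of adjusted p. BDNF is named as a called member of a gene list, and the grouping is not a tested theme. CNTN1, an adhesion molecule of axons, was at 5.36, 6.59 and 12.4 CPM at C1 and at 35.8, 34.2 and 45.2 CPM at C3 (log2 change 2.24, SE 0.31, edgeR adjusted p = 0.000257). Its other feature rose by 2.29. KCNA1, a voltage-gated potassium channel, was at 6.39, 4.71 and 5.71 CPM at C1 and at 19.3, 14.9 and 23.4 CPM at C3 (log2 change 1.76). SEMA6B, a semaphorin, rose by 2.18, NTN4, a netrin of basement membranes, by 1.89, and BEX5, a small gene of the brain-expressed X-linked family, by 1.54. BDNF, a neurotrophin gene that the repressor REST keeps down outside neurons, was at 25.3, 34.2 and 32.8 CPM at C1 and at 58.4, 60.3 and 78.8 CPM at C3 (log2 change 1.10, SE 0.24, edgeR adjusted p = 0.0228). It was the only call among 10 features tested of 39 in the list of neuronal genes repressed by REST. The other 29 did not pass the filter on low counts, 27 of the 39 had at most 3 counts in every C1 and C3 library, and the median log2 change of the 10 was 0.37.

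HBG1, a fetal globin gene long known to be induced by inhibitors of histone deacetylases, was at 1.85, 1.26 and 2.73 CPM at C1 and at 6.57, 9.03 and 16.3 CPM at C3 (log2 change 2.40, SE 0.51, edgeR adjusted p = 0.0175). Its near-identical copy HBG2 may share these reads. HBG1 was the only call among 13 features of genes known to rise on deacetylase inhibition, whose median log2 change was 0.09 with 7 changes above 0. The gene also stands in the list of erythroid markers, of which 11 of 12 features had at most 3 counts in every C1 and C3 library. None of 22 features of the histone deacetylases themselves was called (median -0.02). The lowest p among them belonged to HDAC6, at 703.1 to 828.7 CPM at C1 and 539 to 611.5 CPM at C3 (log2 change -0.42, edgeR adjusted p = 0.101).

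The remaining rising genes of largest change have varied functions. HLA-DQB1, a class II antigen-presenting chain, rose by 2.44 on the log2 scale in 1 feature, and its other tested feature had a change of 0.27. C15orf48, a small mitochondrial protein, was at 2.06, 2.20 and 1.74 CPM at C1 and at 5.89, 10.0 and 15.8 CPM at C3 (log2 change 2.38). The phosphatase PPM1J rose by 1.89, TMEM100 by 1.79 and PXYLP1, a phosphatase of glycosaminoglycan synthesis, by 1.70. NFE2L3, a transcription factor related to NRF2, was at 13.6, 20.7 and 12.9 CPM at C1 and at 41.0, 43.2 and 42.7 CPM at C3 (log2 change 1.44, SE 0.24, edgeR adjusted p = 0.00218). With limma-voom in place of edgeR, 4 of the 15 rising genes of largest change were called, and with batch 1 left out of every group 0 of the 15 were. With limma-voom 26 features rose in all.

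GDF15, a stress hormone that p53 induces, was at 201.9, 151.2 and 184.0 CPM at C1 and at 312.7, 282.7 and 267.1 CPM at C3 (log2 change 0.68, SE 0.15, edgeR adjusted p = 0.0259). It was the only call among 30 features of p53 targets, whose median log2 change was 0.03. No feature was called in some other lists of stress responses and proliferation. These were 31 features of the cell cycle and mitosis (median -0.23), 27 of the integrated and endoplasmic reticulum stress response (median -0.23), 20 of heat shock chaperones (median 0.20), 26 of interferon-stimulated genes (median 0.02) and 4 of metallothioneins (median 0.62). Over all features tested 1.13% were called, so a list of this size without a call, here or elsewhere, is near that share. The member of lowest p was TYMS in the first of these lists (log2 change -0.46, edgeR adjusted p = 0.0809) and ATF5 in the next (-1.57, edgeR adjusted p = 0.057). It was HSPH1 among chaperones (0.44, edgeR adjusted p = 0.438), OASL among interferon-stimulated genes (1.57, edgeR adjusted p = 0.14) and MT2A among metallothioneins (0.79, edgeR adjusted p = 0.0653). MT2A was at 145.9, 129.3 and 129.1 CPM at C1 and at 226.2, 257.8 and 215.5 CPM at C3, without overlap of the groups.

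None of 36 features of hepatocyte transcription factors and nuclear receptors was called. Their median log2 change was -0.18, with 27 of 36 below 0 beside 6445 of all 12982 features tested. The lowest p belonged to ESRRA (-3.76, edgeR adjusted p = 0.262), which had few counts. Among 14 features of Wnt targets and antagonists CYP2E1 was the only call (median -0.08). Among 35 features of the extracellular matrix the only call was DCN, the proteoglycan decorin (median 0.00). DCN had 3 tested features with log2 changes from -1.22 to 0.32, and the call was lost with the HepaRG batch as a block (log2 change -1.22, edgeR adjusted p = 0.0555) and with the probes summed (edgeR adjusted p = 0.355). None of 21 features of the cytoskeleton and junctions was called (median 0.00), where GJB1 had the lowest p (log2 change -0.77, edgeR adjusted p = 0.057).

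**Figure D3:**
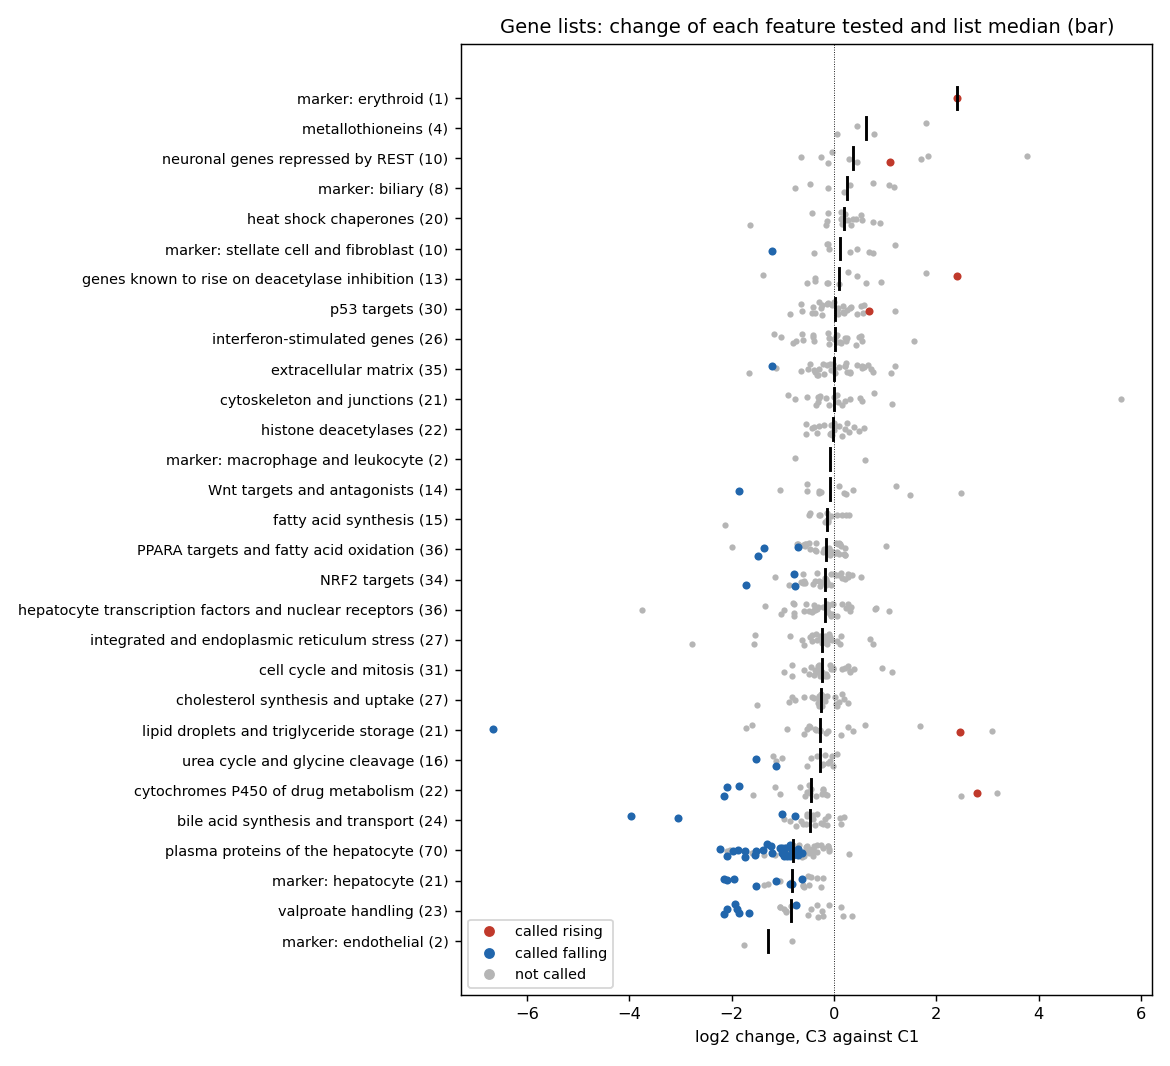
Log2 change of C3 against C1 (horizontal axis) of each feature tested in 29 gene lists, ordered by list median (black bar), with the number of features tested in parentheses. Called falling features (blue) crowd the plasma proteins, hepatocyte markers and valproate handling lists, whose medians lie between -0.80 and -0.84, while most other lists have medians near 0.

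Markers of the cell types that the culture could hold were set beside these results. Of the 21 hepatocyte marker features 8 fell, among them those of G6PC, FGB, CPS1, ARG1, ALB and TF, and all 21 had a change below 0. Over all 12982 features tested, 0.84% fell and 6445 changes lay below 0. The sum of the hepatocyte markers went from 50870 to 59940 CPM at C1 to 32840 to 35750 CPM at C3. The list's median of -0.82 was -0.53 without batch 2. The sum of biliary markers was 84.7 to 95.2 CPM at C1 and 100.5 to 118.4 CPM at C3, with 0 of 8 tested features called. SPP1, osteopontin, had the lowest p among them (log2 change 1.18, edgeR adjusted p = 0.0809). Stellate cell and fibroblast markers summed to 237.1 to 290.3 CPM at C1 and 264.7 to 299.8 CPM at C3, ranges that overlap. Of their 10 tested features only that of DCN was called. Endothelial markers summed to 11.9 to 14.7 CPM and 4.53 to 8.64 CPM, with 12 of 15 features at no more than 3 counts in every library, so that only those of PECAM1 and KDR were tested (log2 changes -1.77 and -0.82, not called). Macrophage and leukocyte markers summed to 29.1 to 52.7 and 25.7 to 32.0 CPM, with 11 of 13 features at no more than 3 counts and those of CD68 and CD14 tested and not called. Fewer hepatocyte-like cells and less of these RNAs per cell cannot be told apart in bulk libraries, and the part of cell composition in the falls was not tested.

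The called features were looked at in the C2 and C4 libraries of valproic acid, another pair of levels 9-fold apart that shares no library with C1 and C3. This comparison was chosen after the data were seen and was fitted on those 6 libraries alone. The 147 features, however, had been called in a fit of all valproic acid libraries, those of C2 and C4 among them. The C2 and C4 libraries thus entered the filter on low counts and the estimate of the spread behind that call. The calls in C4 against C2 are therefore not independent of it. In C4 against C2, 98 of 11868 features rose (0.826%) and 233 fell (1.96%). Of the 38 features that rose between C1 and C3, all 38 were tested and had a change above 0 and 20 were called rising. Of the 109 that fell, 108 were tested, all 108 had a change below 0 and 81 were called falling. None was called in the opposite direction. The median log2 change was 1.47 for the rising and -1.73 for the falling features, beside 0.02 over all features. The log2 change was -4.56 for CYP7A1 and -3.93 for HAO2. GPR50 rose by 4.63, CYP1A1 by 4.49 and SLC16A12 by 2.47. Others did not pass the test, among them TNFAIP6 (1.94, edgeR adjusted p = 0.138), CRP (-1.63, edgeR adjusted p = 0.224) and AZGP1 (-0.11, edgeR adjusted p = 0.847). Without batch 1 the number called the same way, 101 of the 147, was 20, and 66 without batch 2.

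The neighbouring levels share libraries with this comparison, so their values are given side by side only. Between C1 and C2 no feature was called by edgeR, and DESeq2 called 7 and limma-voom 5. Of 12982 features tested by edgeR, 655 had an unadjusted p under 0.05, which is close to the share that this threshold passes without any change. Without a filter on low counts 26 were called, and 46 when only the 6 libraries compared were fitted. CYP7A1 was at 48.6, 27.5 and 29.0 CPM at C2 and at 2.40, 0.0 and 1.95 CPM at C4. ALB was at 19500, 18430 and 14010 CPM at C2 and at 4140, 7327 and 4577 CPM at C4. At C2 CYP7A1 lay between the C1 and C3 libraries, whereas 1 ALB library lay within the C3 range, and at C4 ALB was below every C3 library. SLC16A12 was at 21.9, 22.2 and 20.9 CPM at C2 and at 126.8, 113.3 and 121.2 CPM at C4. Between C3 and C4 edgeR called 395 features, of which 135 rose and 260 fell, and 85 when only those 6 libraries were fitted.

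Mocetinostat, a benzamide inhibitor of class I histone deacetylases, was tested on the same plate and cell batches. Its C1 and C3 lay at 0.177222 and 1.595 µM per the labels, also 9-fold apart, but the concentrations of the chemicals are not matched in effect. Its C3 and C1 groups share no library with those of valproic acid, but all 30 libraries of the 2 chemicals were fitted together. The filter on low counts and the estimate of the spread were thus shared, so the calls of the 2 chemicals are not independent. In that fit 8.08% of its features rose and 7.99% fell. Of the 38 features that rose with valproic acid, 31 rose with mocetinostat (81.6% of the 38 and 2.78% of the 1116 that rose). Of the 109 that fell, 104 fell with mocetinostat (95.4% of the 109 and 9.43% of the 1103 that fell). The median log2 change of the falling features was -1.19 with valproic acid and -2.37 with mocetinostat. The difference between the 2 chemicals, tested as an interaction, was called in 385 of 13812 features (2.79%) and in 48 of the 147. Without batch 1 it was called in 117 features, without batch 2 in 83 and without batch 3 in 255. In all 48 mocetinostat gave the larger change in the same direction, for example BAAT with log2 changes of -1.01 and -5.45, a difference of 4.44 (SE 0.32).

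Vorinostat, a hydroxamate inhibitor, lay on plate E with C1 and C3 at 0.404778 and 3.643 µM. There 2.51% of features rose and 3.27% fell, in a fit that likewise held the valproic acid libraries. Of the 38 features that rose with valproic acid 22 rose with vorinostat (57.9% of the 38 and 6.49% of 339), and of the 109 that fell 87 fell (79.8% of the 109 and 19.7% of 441). The difference was called in 5 of 13495 features (0.0371%), of which 2 were among the 147, and in 15 with the HepaRG batch as a block. RDH16 fell with both, and its log2 change was -4.63 with vorinostat. AZGP1, which encodes a zinc-binding glycoprotein of plasma, was at 182.1, 234.0 and 242.1 CPM at C1 and at 111.4, 119.8 and 122.2 CPM at C3 of valproic acid. With vorinostat it was at 434.4, 539.5 and 523.1 CPM at C1 and at 558.9, 764.1 and 675.8 CPM at C3. The log2 changes were -0.90 and 0.42, a difference of -1.31 (SE 0.24, edgeR adjusted p = 0.00973). The other 3, named after their values were seen, were S100A8, S100A9 and CYP2C8, none of which was called with valproic acid. CYP2C8, a drug-metabolising cytochrome P450, had log2 changes of -0.46 with valproic acid and -2.37 with vorinostat. Plate and chemical cannot be told apart for vorinostat, and without batch 1 or without batch 2 the difference was called in 0 features.

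**Figure D4:**
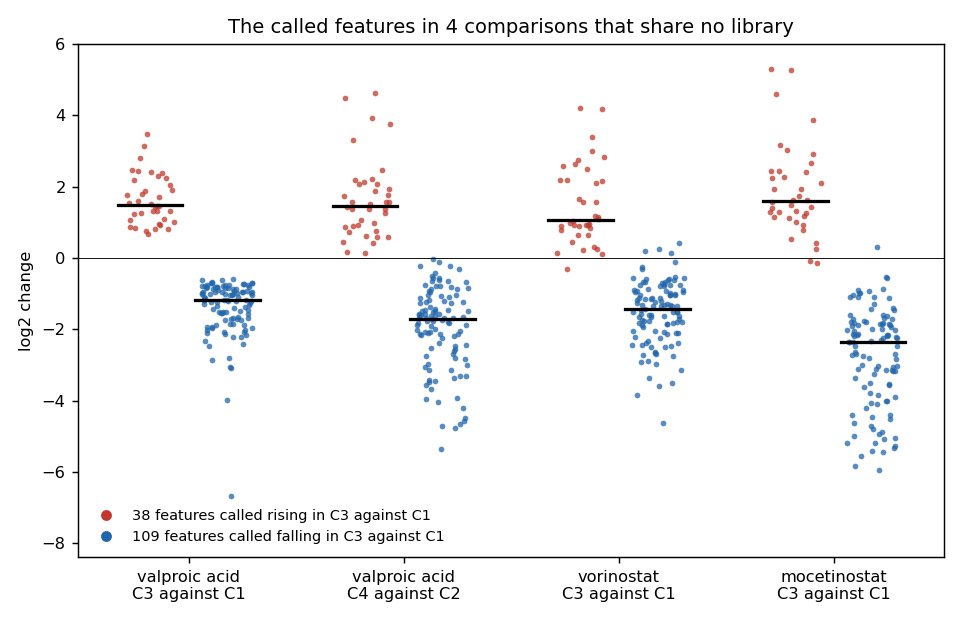
Log2 change (vertical axis) of the features called between valproic acid C3 and C1, rising (red, 38) and falling (blue, 109), in that comparison and in 3 comparisons whose groups share no library with it or with each other, with medians as black bars. The changes of vorinostat and mocetinostat come from fits that also held the valproic acid libraries. The features themselves were called in a fit that also held the C2 and C4 libraries of valproic acid. The rising features have medians of 1.48, 1.47, 1.06 and 1.59 and the falling features of -1.19, -1.73, -1.44 and -2.37, from left to right.

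Probes of the same gene allowed a check within the libraries. Of 139 called symbols, 19 had several tested features, and in 8 of the 19 all were called. The changes of all features of a gene had the same sign in 17 of the 19, the exceptions being DCN and GSTA2. The other 120 symbols rest on a single tested feature. Genes of families with near-identical members, such as ADH1A and ADH1B, ORM1 and ORM2, GSTA1 and GSTA5, and SAA2-SAA4, are uncertain where their probes could share reads.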

How the data were processed

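The authors deposited raw counts per TempO-Seq probe pair, as whole numbers without normalisation and with 1 column per library. The submitters' processing notes name bcl2fastq 2.20.422, fastp 0.23.2, STAR 2.7.10b and DESeq2 1.38.0 with no role or order. The genome build is not given in the sources used here. Of 22069 rows, 1 (a SEC13 probe) lacked values in 88 of 118 libraries and was left out.

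The 15 valproic acid libraries were fitted together in R 4.3.3 with edgeR 4.0.16, using filterByExpr, TMM scaling and quasi-likelihood F tests without a batch term. P-values were adjusted by Benjamini-Hochberg over all features tested, and a call needed an adjusted p under 0.05 and 1.5-fold. Standard errors (SE) were derived from the change and its F statistic. Differences between chemicals were interaction contrasts over 30 libraries, and the changes and calls of mocetinostat and vorinostat came from those same fits. Log2 CPM used a prior count of 2. DESeq2 1.42.0 and limma 3.58.1 were alternatives, and the edgeR step was tested on simulated data.

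Replicate numbers pair libraries, because each number is 1 HepaRG batch in the labels. Deviations from group means correlated by a median of 0.037 in 30 same-batch pairs and by -0.024 in 60 others. Reads carry no molecular identifiers, so intervals cover counting error only, and p-values measure the spread between 3 batches of 1 cell line.

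Named genes were the 15 rising and 15 falling symbols of largest change that moved alike in 3 batches, the 5 of each direction with the lowest adjusted p, called members of 29 gene lists (the lowest p where none was called) and features differing between chemicals. The comparison and the lists were chosen with earlier results of these data known. Total counts per library (1061359 to 5250260) set the precision of low features. Some genes that meet these rules are not reported here, and they are included in the counts and medians.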

Additional observations from a re-analysis of the deposited data

Results flagged for a closer look

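Of the changes between valproic acid C1 and C3, 48 of the 147 called features differed from the change given by mocetinostat, all with the larger change in mocetinostat. Over all features that difference was called in 385, in 117 without batch 1, in 83 without batch 2 and in 255 without batch 3. The interaction test of edgeR also separated valproic acid from vorinostat in 2 called features. RDH16_19976 fell in both, and the log2 difference, valproic acid minus vorinostat, was 2.59 (SE 0.47, edgeR adjusted p = 0.00973). AZGP1_14347 was lower at C3 in all 3 valproic acid batches and higher at C3 in all 3 vorinostat batches, with a log2 difference of -1.31 (SE 0.24, edgeR adjusted p = 0.00973). Neither of these 2 differences was called without batch 1 or without batch 2. Plate and chemical cannot be told apart for vorinostat, and AZGP1 was not called in valproic acid C4 against C2.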

How the results depend on the processing

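All 147 called features kept their sign in each alternative that tested them. RLE or upper quartile scaling, a filter at a mean of 20 counts, adjusted p alone and summed probes kept the total between 141 and 153. With the replicate block it was 169 (50 rising, 119 falling) and 15 features differed from vorinostat. Without a filter on low counts there were 249 calls (85 rising, 164 falling), with DESeq2 242 (82 rising), and with only the 6 libraries compared 376 (116 rising, 260 falling).

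Leaving out a batch from every group gave 10 to 129 calls (1 to 30 rising, 9 to 99 falling), and leaving out 1 library of C1 or C3 gave 71 to 93 (18 to 23 rising, 53 to 73 falling). The 10 features called under every alternative on single probes included those of ACSM2B, ADH1A, ADH1B, CYP7A1, GSTA2, HAO2 and SLC16A12. The cause of these shifts was not tested.

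For C2 against C1 the count was 26 without a filter, 7 with DESeq2, 5 with limma-voom, 46 with the 6 libraries alone and 0 otherwise, also without any batch. For C4 against C3 it was 832 without a filter, 654 with DESeq2, 85 with the 6 libraries alone and 64 to 428 without a batch, against 395. The difference from mocetinostat had 579 calls with DESeq2 and 83 to 255 without a batch, against 385. That from vorinostat had 57 without a filter, 34 with DESeq2 and 0 to 76 without a batch, against 5. In C4 against C2, 20 to 107 of the called features were called the same way without a batch, against 101. Features with few counts are measured with less precision.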
